A study of Homo sapiens with 14 samples.

Results

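The regions described here were the strongest GATA3-bound regions that all 12 libraries of the study had in common. Peaks of the 12 deposited lists (433307 peaks) were merged wherever they overlapped by 1 bp or more, which gave 78999 regions. In each list the peaks were ranked by the authors' score, and a region took the percentile of its best peak, with 100 for the highest score of the list. A region was kept when all 12 libraries called it and the lowest of its 12 percentiles was at least 80. The regions, 1878 in all, were thus chosen by measured score percentiles. They were 2.38% of all merged regions and 17.2% of the 10933 regions called in all 12 libraries. Scores and percentiles of these strong regions are therefore given as descriptions, without a test.

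The study mapped GATA3 by ChIP-seq, in which DNA fragments bound to a protein are pulled down with an antibody and sequenced, in the human triple-negative breast cancer line MDA-MB-231. The 6 groups were wildtype GATA3 (WT), the point mutant p.A442M (A442M), the point mutant p.G444E (G444E), and the same 3 proteins carrying FLAG, a short epitope tag, at their C-terminal end (WT-FLAG, A442M-FLAG, G444E-FLAG). Each group had 2 libraries, all cells were untreated and harvested on day 3, and the same GATA3 antibody was used throughout. The design text states that the tag stabilises the GATA3 protein in wildtype and mutants alike. The labels do not give the vector's promoter or whether the cells were a clone. They also do not say whether replicates were separate cultures, so a p-value here reflects only how these libraries spread, and that spread may be technical. A peak list holds no expression values, so the cell type could not be checked against marker genes. Libraries of empty-vector cells were not analysed here, so the strong regions were not compared with a background list.

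GATA3 is a zinc-finger transcription factor that directs the luminal fate of mammary epithelium and the development of T helper cells. It binds DNA at short motifs built around the letters GATA, and in breast cells most of its sites lie at enhancers away from promoters. Triple-negative lines such as MDA-MB-231 usually have little GATA3 of their own. ChIP-seq peak strength reflects how often, and in how many cells, a site was recovered with the factor. In a population of cells these contributions cannot be told apart.

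Sequence could be read only where a strong region covered the promoter window that RefSeq gives for a gene (250 bases before to 50 after the start site, GRCh38.p14). The strong regions held 50 such windows of 46 genes in 42 regions, 29 of them from protein-coding and 21 from long non-coding RNA genes. The searched GATA motif AGATAA, read on both strands (TTATCT on the other), was found in 14 of the 50 windows, each in a different region. The lines below show 80 bases from before the start site, 5′ to 3′ on the gene's strand, with the motif in capitals. They show 10 windows whose motif lies wholly before the start site, those of the highest lowest percentile. A merged region joins the peaks of all libraries, so a window that it covers need not lie under a library's best peak. The SLC44A1 start site, for example, lay 1498.75 bp from the middle of its region, where best peaks were 824 to 2067 bp wide. The first set has the motif on the gene's own strand.
LOC101927971, chr14:68404323-68404402, minus strand: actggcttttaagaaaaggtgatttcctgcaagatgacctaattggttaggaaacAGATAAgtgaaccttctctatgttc
LOC105371777, chr17:40850548-40850627, plus strand: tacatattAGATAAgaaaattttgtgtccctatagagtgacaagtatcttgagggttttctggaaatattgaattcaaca
C1QTNF1-AS1, chr17:79027679-79027758, minus strand: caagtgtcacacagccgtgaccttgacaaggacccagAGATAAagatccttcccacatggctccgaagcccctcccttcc
LOC107986834, chr7:108020860-108020939, plus strand: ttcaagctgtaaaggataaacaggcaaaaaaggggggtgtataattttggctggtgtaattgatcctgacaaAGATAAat
ERAP2, chr5:96875904-96875983, plus strand: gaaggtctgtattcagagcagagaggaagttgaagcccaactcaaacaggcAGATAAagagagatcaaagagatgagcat
GPR137, chr11:64270401-64270480, plus strand: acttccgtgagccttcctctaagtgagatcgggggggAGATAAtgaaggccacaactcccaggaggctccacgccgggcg
The motif lay 20 bases before the start site of LOC101927971 and 24 bases before that of ERAP2, an aminopeptidase that trims peptides for antigen presentation. In the next set the motif lay on the opposite strand.
ALOXE3, chr17:8119033-8119112, minus strand: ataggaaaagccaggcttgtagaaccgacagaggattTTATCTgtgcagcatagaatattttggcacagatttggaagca
LOC124901072, chr5:135134205-135134284, plus strand: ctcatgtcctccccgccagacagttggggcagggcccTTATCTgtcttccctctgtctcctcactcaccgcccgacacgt
CPOX, chr3:98593694-98593773, minus strand: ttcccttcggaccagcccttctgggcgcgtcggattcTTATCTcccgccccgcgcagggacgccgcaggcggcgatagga
LINC00482, chr17:81309419-81309498, minus strand: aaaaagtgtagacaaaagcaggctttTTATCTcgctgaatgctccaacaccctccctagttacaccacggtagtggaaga
Here the motif came 120 bases before the start site of CPOX, an enzyme of haem synthesis, and 154 bases before that of ALOXE3, an epidermal lipoxygenase. The third set shows promoters that hold no GATAA on either strand in the window, taken from the strong regions with the highest lowest percentile among those whose window lacks it.
SLC44A1, chr9:105244401-105244480, plus strand: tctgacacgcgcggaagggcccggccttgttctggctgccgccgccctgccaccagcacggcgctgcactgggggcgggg
ST3GAL6, chr3:98763222-98763301, plus strand: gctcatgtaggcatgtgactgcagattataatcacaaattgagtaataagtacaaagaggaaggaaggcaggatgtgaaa
PDZK1, chr1:145707539-145707618, minus strand: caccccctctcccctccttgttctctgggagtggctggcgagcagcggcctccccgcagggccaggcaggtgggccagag
SLC44A1 encodes a choline transporter, ST3GAL6 a sialyltransferase and PDZK1 a scaffold protein of membrane transporters.

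The shorter motif GATAA (both strands, contained in every AGATAA) was present in 36.0% of the 50 windows, against 42.7% of 234 windows in the other regions called by all 12 libraries and 22.7% of all 35116 windows. AGATAA was present in 28.0% (95% Wilson interval 17.5% to 41.7%), against 25.2% and 10.3%. Strong and weaker shared regions thus lay close together for AGATAA, and the interval of the 50 windows is wide. Distance between the 16 AGATAA matches and the middle of their region had a median of 157 bp, and 7 lay within 150 bp. The match at LOC124901072 lay 4.50 bp from the middle of its region and that at LINC00482 24.8 bp, whereas the match at GPR137 was 1467.75 bp away.

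Other motifs were searched in the same 50 windows on both strands. The AP-1 motif TGANTCA was found in 14.0%, against 18.4% of the windows in other shared regions and 7.71% of all windows. The TEAD motif GGAATG and the RUNX motif TGTGGT were each found in 22.0%. Windows in other shared regions gave 17.1% and 14.1%, and all windows 14.0% and 13.1%. The forkhead motif TGTTTNC was found in 26.0%, against 15.8% of the windows in other shared regions and 18.0% of all windows. Motifs typical of housekeeping promoters were not more frequent: the ETS motif CCGGAAG was in 1 of the 50 against 10.3% of all windows, the GC box GGGCGG in 19 of 50 against 45.0%, and CCAAT in 14 of 50 against 34.6%. The CTCF motif was found in 2 of 50, against 3.85% and 3.36%. GC content had a median of 54.8% in the 50 windows, 55.7% in those of other shared regions and 58.7% in all windows. Its part in the motif shares was not tested. A match is a description of the letters, and windows of 1 gene with several start sites overlap.

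The strongest site of all lay inside BTBD9, a gene known from restless legs syndrome, at chr6:38306233-38309339 (hg38 coordinates throughout). Its lowest percentile over the 12 libraries was 99.99, and no protein-coding gene end lay within 100 kb. This region held the highest score of the whole list in 5 of the 6 untagged libraries and in 0 of the 6 FLAG libraries, where it stood between the second and the seventh place. The site inside TFEB (chr6:41730039-41731774), the gene of a transcription factor for lysosomal genes, held the highest score in 6 of the 6 FLAG libraries. In the untagged libraries it came in place 18 and 35 for WT, 3 and 3 for A442M, and 2 and 3 for G444E. First place was therefore taken by different sites with and without the tag.

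The untagged G444E list of replicate 1 had yet another site in first place, inside MARCHF8 at chr10:45469999-45471315, which encodes a membrane-bound ubiquitin ligase. That site showed a division by replicate number: in replicate 1 it held place 2, 2, 1, 2, 8 and 2 in WT, A442M, G444E, WT-FLAG, A442M-FLAG and G444E-FLAG. The replicate 2 libraries of the same groups had it in place 26, 11, 16, 21, 64 and 11. Replicate 2 was thus lower in each of the 6 groups.

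The remaining leading sites kept high places in nearly every list. MDGA1 (chr6:37666853-37668646), a cell-adhesion gene, stood between place 2 and 10 in all lists. NR6A1 (chr9:124706427-124709914), an orphan nuclear receptor, stood between place 4 and 22. PLAAT3 (chr11:63580676-63582401), a phospholipase gene, stood between 5 and 23, and ITGB3 (chr17:47300701-47301649), the integrin beta-3 gene, between 6 and 39. The ASAP1 site, in a gene for an Arf GTPase-activating protein of focal adhesions, stood between 8 and 30. SLC44A1 (chr9:105242472-105244743) had the widest span, from place 4 in WT replicate 1 to 45 and 125 in the A442M-FLAG libraries. Scores of the BTBD9 site ran from 614 to 1709 with a median of 876, and those of the TFEB site from 468 to 1183 with a median of 848.

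SP6, a transcription factor gene of skin and teeth, had a compact site close to its start (chr17:47844118-47844756). The merged region was 639 bp wide, its middle lay 471 bp from the start site, and the peaks of the 12 libraries were 462 to 620 bp wide. The NR6A1 site was of another shape, with peaks from 672 to 3162 bp. Peaks of the BTBD9 site were between 1837 and 2976 bp. Leading sites were thus both narrow and broad.

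Only 9 strong regions were among the first 100 places of all 12 lists, and 236 were among the first 100 of at least 1 list. In the 10 libraries other than A442M-FLAG, between 86 and 98 strong regions had a place in the first 100. The A442M-FLAG lists had 67 and 66. The highest peaks of A442M-FLAG thus overlapped least with the regions strong everywhere.

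The threshold passed through a dense range of values. Just inside were NAP1L4 at a lowest percentile of 80.06, a chromosome 5 site inside ADGRV1 at 80.05 and PSEN2 at 80.03. Just outside were SMAD3 at 79.97, ZMAT3 at 79.96 and a chromosome 1 site without a gene end within 100 kb at 79.94. In the lists, the 80th percentile corresponded to scores from 46.4 to 52.9. The median score of the strong regions ran from 106 in A442M-FLAG replicate 2 to 156 in A442M replicate 1. They took up between 4.08% and 8.02% of the peaks of a list.

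Which library set the lowest percentile was uneven. Untagged WT did so for 785 strong regions (41.8%), and A442M-FLAG for 700 (37.3%). The other groups did so for 151 (G444E), 132 (G444E-FLAG), 69 (WT-FLAG) and 41 (A442M) regions. Untagged WT had lists of 28890 and 25248 peaks, near the short end, and A442M-FLAG had 51694 and 42993, the longest and the third longest of the 12 lists. The part of list length in this was not tested.

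**Figure D1:**
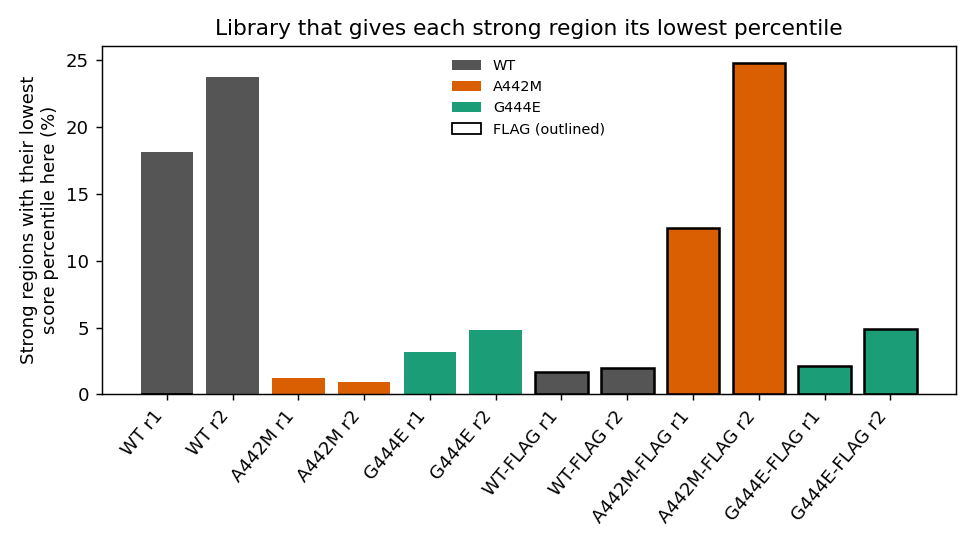
Share of the 1878 strong regions (vertical axis, percent) that had their lowest score percentile in each of the 12 libraries (horizontal axis, r1 and r2 for the replicates). Colours give the GATA3 protein and black outlines mark FLAG libraries; the tallest bars are A442M-FLAG replicate 2 (24.8%) and WT replicate 2 (23.7%).

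The order of the strong regions was kept between replicates. For some pairs of groups it was kept more closely between libraries of the same replicate number than between replicates. Across the 1878 regions, Spearman's correlation of scores between replicates was 0.754 to 0.838 (6 pairs). Between libraries of different groups it was 0.256 to 0.908 with the same replicate number (30 pairs, median 0.747) and 0.162 to 0.732 with the other number (30 pairs, median 0.588). These correlations are across regions, which are not independent replicates, so no p-value is attached. WT-FLAG and G444E-FLAG were the most alike groups at a mean of 0.819, followed by G444E and G444E-FLAG at 0.807. Untagged WT and A442M-FLAG were the least alike at 0.235. Untagged and FLAG-tagged WT gave 0.428, whereas untagged WT and untagged A442M gave 0.695. This least alike pair was made up of the 2 groups that most often set the lowest percentile. Both descriptions come from the same scores, so neither is separate support for the other. Untagged WT also carried 110 and 84 peaks on contigs outside the assembled chromosomes and untagged A442M 75 and 57, where the other 8 libraries had 14 to 24; the part of this in the order was not tested.

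**Figure D2:**
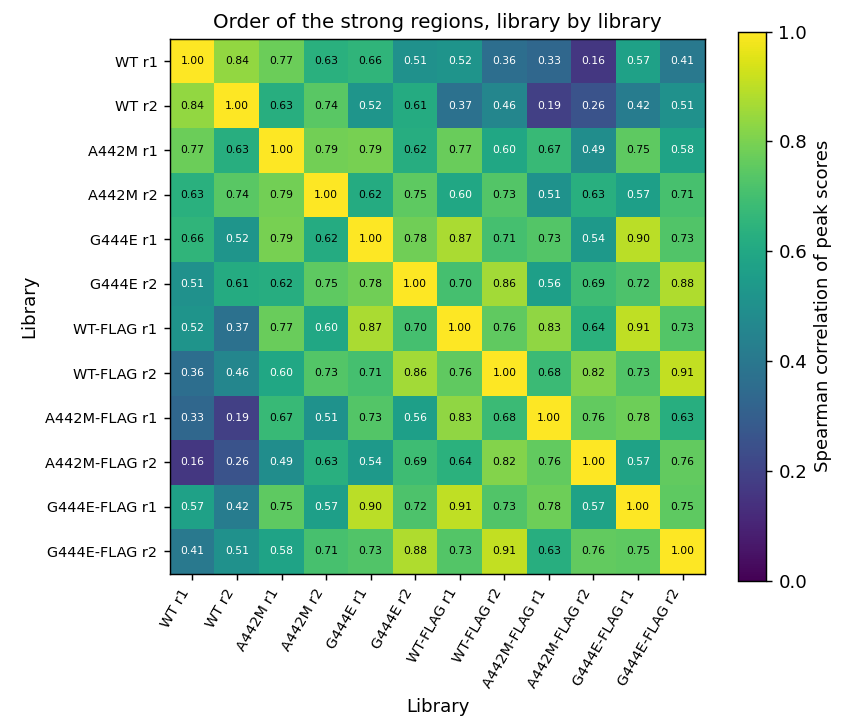
Spearman correlation of the peak scores of the 1878 strong regions for each pair of the 12 libraries (both axes; colour scale from 0 to 1, r1 and r2 are the replicates). The darkest cells join untagged WT with A442M-FLAG (0.162 to 0.335) and the brightest off-diagonal ones join WT-FLAG with G444E-FLAG of the same replicate number.

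Single strong regions that changed place were read from the rank among the 10933 regions called in all 12 libraries, as a percentile with 100 for the highest. Counted were regions whose 2 sets of libraries did not overlap. Since the rule used these scores, the counts are descriptions. The rule also left a different lowest rank of any strong region in each library. It was 61.5 and 65.0 in untagged WT, 44.8 to 57.8 in the other untagged libraries and 43.8 to 54.6 in the FLAG libraries. The part of these floors in the counts and in the size of the shifts was not tested. With the tag, 27 of 1878 strong regions (1.44%) stood higher in every FLAG than in every untagged library, where 2.59% of all shared regions did so. Lower in every FLAG library were 89 (4.74%), against 2.96%. A442M was higher than WT in every library for 33 (1.76%), against 1.65%, and lower for 45 (2.40%), against 1.63%. G444E was higher than WT for 33 (1.76%), against 0.979%, and lower for 15 (0.799%), against 1.19%. The 2 mutant contrasts share the WT libraries.

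Of the sites that stood lower with the tag, that near NFATC1 (chr18:79388242-79389281), the gene of a calcium-regulated transcription factor, had ranks of 91.1 at the lowest, 96.3 at the median and 99.5 at the highest in the untagged libraries. In the FLAG libraries they were 56.4, 74.0 and 85.2. WT showed the largest gap, with 99.5 and 99.3 untagged against 64.0 and 56.4 with the tag. A site on chromosome 1 without a gene end within 100 kb (chr1:218025354-218025924) had 83.0, 89.0 and 92.2 untagged against 55.5, 59.0 and 69.8 with the tag. The site inside SNX13, a sorting nexin gene, had 82.2, 89.4 and 93.8 untagged against 50.1, 60.9 and 78.3. The non-overlap of the tag states was the condition for naming these 3 sites.

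In the opposite direction, a site inside RPTOR (chr17:80866292-80866860), which encodes a subunit of the mTORC1 kinase complex, stood at 59.4 to 76.4 untagged and 81.8 to 88.6 with the tag. The protein-coding entry with the nearest end there was LOC124904075. The site at ZC3HAV1, an antiviral zinc-finger gene, stood at 58.3 to 83.1 untagged and 83.5 to 91.5 with the tag, so its groups all but touched. The site inside WDFY2 stood at 63.1 to 75.03 and 80.3 to 86.3. The named upward shifts with the tag had mean differences of 14.9 to 17.8 percentile points, and the named downward ones -24.2 to -26.9. The floors given above left strong regions unequal room to fall, so these sizes are not compared further.

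Against WT, A442M stood lowest at PTBP3 (chr9:112377059-112378147), a gene of a splicing regulator. Ranks there were 63.8 and 71.0 in A442M and 50.01 and 54.4 in A442M-FLAG, and 85.4 and 89.2 in WT and 75.3 and 80.1 in WT-FLAG. The site near ACTC1, a cardiac actin gene, had 76.8 and 83.5 in A442M, 58.5 and 70.2 in A442M-FLAG, 91.3 and 95.8 in WT, and 88.7 and 89.9 in WT-FLAG. At both sites A442M stood further below WT with the tag than without, a difference that was not tested. The site inside POLR3B, an RNA polymerase III subunit gene, had 59.9 and 63.6 in A442M, 71.0 and 65.8 in A442M-FLAG, 83.3 and 85.9 in WT, and 80.7 and 81.7 in WT-FLAG.

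A442M stood higher than WT at APBB1IP (chr10:26475207-26476242), an adaptor gene of integrin activation, with 82.1 and 79.1 untagged and 82.4 and 91.2 tagged against 68.1, 68.9, 57.6 and 63.4 in WT and WT-FLAG. A site on chromosome X far from any gene end (chrX:42249163-42250134) had 92.4, 86.8, 89.0 and 89.4 in the A442M libraries and 63.1, 79.2, 63.1 and 79.0 in the WT libraries. Its WT values divided by replicate number and not by tag. The site near ZC3H4 had 91.7 to 98.3 in A442M and 66.5 to 89.3 in WT.

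G444E stood lower than WT at ROR1 (chr1:64170960-64172587), a receptor tyrosine kinase gene. Ranks were 74.5 and 72.3 in G444E, 53.1 and 70.2 in G444E-FLAG, 93.3 and 94.7 in WT and 84.5 and 85.5 in WT-FLAG. The A442M libraries differed by tag there, with 91.4 and 89.8 untagged and 56.1 and 62.8 tagged. Lower ranks in G444E were also seen inside ADGRV1 (54.6 to 73.2 against 78.8 to 87.5 in WT) and inside CPEB3 (59.3 to 72.3 against 75.01 to 84.9). Higher ranks were seen at SLC25A29 (74.7 to 90.2 against 66.5 to 73.1), NAALADL2 (69.8 to 83.6 against 64.3 to 66.0) and a site inside EXT1 (81.8 to 86.0 against 66.9 to 74.9). These upward differences of G444E were 11.8 to 13.0 percentile points on average, and the named ones of A442M were 15.8 to 19.2. Each set holds the 3 largest of its contrast, so these sizes are not compared further.

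**Figure D3:**
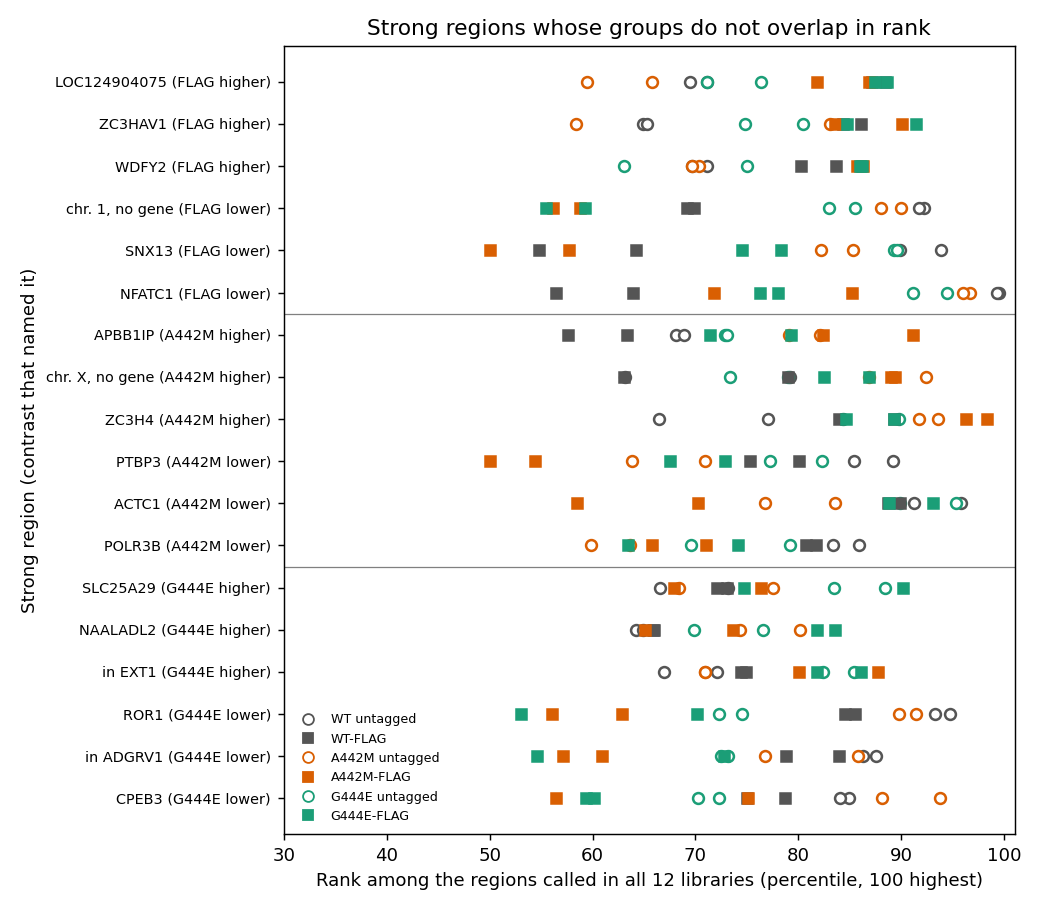
Rank of 18 named strong regions (rows, with the contrast that named each) among the regions called in all 12 libraries, as a percentile on the horizontal axis. Each symbol is 1 library, coloured by GATA3 protein, open circles untagged and filled squares FLAG; the lower ranks of all FLAG libraries at NFATC1 and of all A442M libraries at PTBP3 are visible.

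Strong regions were broad. The merged strong region was 1107.5 bp wide at the median (middle 50% from 848 to 1447 bp), against 863 bp for the other regions called in all 12 libraries, 479 bp for regions called in 2 to 11 and 255 bp for regions called in 1. Width tends to go with score in peak calling, so this too is a description. A merged region spans the peaks of every library that called it, so regions called by more libraries tend to be wider by construction. Within single libraries, the median best-peak width in strong regions was 1.20 to 1.46 times that in the other regions called in all 12. In the strong regions with a lowest percentile of 80 to 90 (1092 regions) the median width was 1026 bp, and in the 46 regions at 99 or above it was 1430.5 bp. The widest strong regions lay inside TRIO (5088 bp), TMEM45A (4469 bp) and ALOXE3 (4152 bp). The region inside TRIO had peaks of 372 and 405 bp in untagged WT and of 438 to 4513 bp in the other groups. The narrowest were a 341 bp region inside MYO1E, a 372 bp region on chromosome 4 and a 379 bp region near MINPP1.

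The width of the best peak in the strong regions was compared between groups over libraries. Median widths were 529 and 577 bp in WT, 655 and 730 bp in A442M, 627 and 748 bp in G444E, 696 and 895.5 bp in WT-FLAG, 595.5 and 751 bp in A442M-FLAG, and 631 and 869.5 bp in G444E-FLAG. Untagged WT had the lowest pair and did not overlap with any other group, whereas the other 5 groups overlapped with each other. FLAG libraries had 739.75 ± 123 bp and untagged libraries 644 ± 85.2 bp (SD, n = 6 each), a difference of 95.4 bp that did not pass an exact permutation test with tag labels exchanged within genotype (two-sided p = 0.204, adjusted p = 0.883 over 10 tests, wider in 5 of 6 same-number pairs). By same-number pair, the tag went with 167 and 318.5 bp more in WT, -59.5 and 21 bp in A442M, and 4 and 121.5 bp in G444E. Mutants and WT differed by 26.5 bp (exact permutation test, two-sided p = 0.707, adjusted p = 0.883), and no other genotype contrast passed either. With 4 against 4 libraries in each tag-matched arrangement the smallest p was 0.0556, so the single-mutant contrasts could not pass 0.05.

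**Figure D4:**
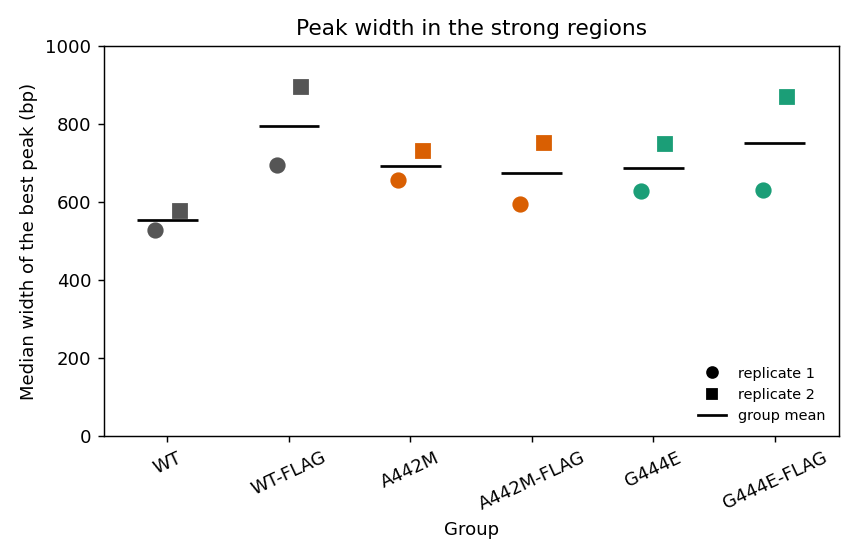
Median width in bp (vertical axis) of the best peak in the 1878 strong regions for each library, by group (horizontal axis). Circles are replicate 1, squares replicate 2 and lines the group means; replicate 2 lies above replicate 1 in 6 of 6 groups, and untagged WT is the narrowest.

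Replicate 2 gave wider peaks than replicate 1 in 6 of 6 groups, by 48 to 238.5 bp. It also split fewer strong regions into several peaks, 5.33% against 9.90% on average and again in 6 of 6 groups. Between the tag states the share of split strong regions did not pass the test: 7.05% ± 3.56 with the tag and 8.19% ± 1.87 without (SD, n = 6 each; exact permutation test, two-sided p = 0.509, adjusted p = 0.883). A442M split more strong regions than WT in 4 of 4 same-number pairs, 8.63% ± 2.52 against 7.20% ± 2.86 (SD, n = 4 each; exact permutation test, two-sided p = 0.444, adjusted p = 0.883). It also split more than G444E in 4 of 4 pairs, 8.63% against 7.03% ± 3.42 (SD, n = 4; exact permutation test, two-sided p = 0.444, adjusted p = 0.883). With labels exchanged only within a replicate number, both contrasts gave p = 0.125 (exact permutation test), the smallest that this pairing allows. The middle of a strong region moved little between libraries, with an SD of 60.5 bp at the median, and at the SP6 site it was 12.8 bp.

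Strong regions were rarely at promoters. Of the 1877 on assembled chromosomes, 43 had their middle within 1 kb of a protein-coding start site, 2.29% (95% Wilson interval 1.71% to 3.07%). The share was 3.67% (3.30% to 4.08%) for the other regions called in all 12 libraries, 5.79% for regions called in 2 to 11 and 7.94% for regions called in 1. The fewer libraries called a region, the more often it lay at a start site. Intervals treat regions as independent and cover counting error only. Within 5 kb the shares were 11.3% for strong regions and 14.3% for all regions, and within 50 kb 58.3% and 57.7%. The difference narrowed with distance. Strong regions lay 36573 bp from a start site at the median, and 443 (23.6%) lay more than 100 kb away. Inside a protein-coding gene were 948 (50.5%), against 51.9% of all regions. Gene spans were used without exons, so exonic, intronic and UTR positions were not assigned.

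**Figure D5:**
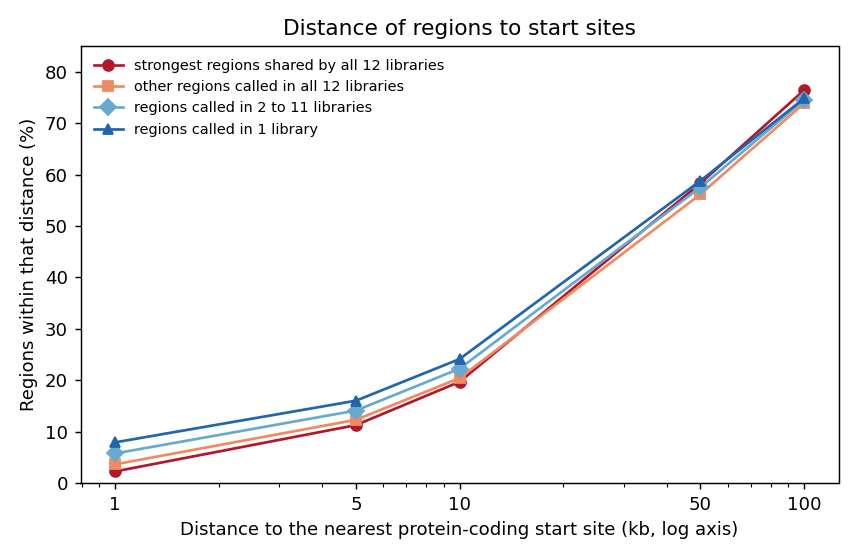
Share of regions (vertical axis, percent) whose middle lies within 1, 5, 10, 50 or 100 kb of the nearest protein-coding start site (log axis). Lines are the strong regions, the other regions called in all 12 libraries, regions called in 2 to 11 and regions called in 1; at 1 kb they run from 2.29% for the strong to 7.94% for the last, and the lines come together at larger distances.

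Along the chromosomes most strong regions stood alone. When those at most 12500 bp apart were joined, 1755 stayed single, 56 chains had 2, 2 chains had 3 and 1 chain had 5. Between neighbouring strong regions the median gap was 564292 bp, while neighbouring regions of any strength were 11232 bp apart. Other regions of any strength were common around strong regions, with a median of 7 within 50 kb. The median was 6 for the other regions called in all 12 libraries and 5 for all regions. The chain of 5 covered 36946 bp inside TMEM45A (chr3:100500115-100537060), with lowest percentiles from 82.5 to 99.2. A chain of 3 lay in PDGFC, which encodes a platelet-derived growth factor. Another on chromosome 17 (chr17:71180282-71190106) was over 900 kb from the nearest protein-coding gene end, with lowest percentiles of 82.9, 95.5 and 97.9. Of the chains of 2, the named ones lay on chromosome 6, at 9481468 to 9497744 with lowest percentiles of 86.2 and 98.1, and near OGFRL1 with 80.2 and 95.1. By chromosome, strong regions were 2.87% of all regions on 21 and on 6, and 1.19% on 16, 1.35% on 13 and 1.52% on X. One strong region, of 754 bp, lay on a contig outside the assembled chromosomes.

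Of 20037 protein-coding genes, 2323 (11.6%) had a strong region reaching within 50 kb of the gene, which does not make them targets. These genes were longer, at a median of 45434 bp against 24115 bp for all, and neighbouring genes share regions. Most genes with any had 1 (1986 genes), 277 had 2 and 47 had 3. ABLIM3, TMEM45A, GMDS and ASAP1 had 5 each. ABLIM3 encodes an actin-binding LIM protein and GMDS an enzyme of GDP-fucose synthesis. CAST, BMPER, EVI5 and EXT1 had 4 each; CAST encodes the calpain inhibitor calpastatin and BMPER a modulator of bone morphogenetic proteins.

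GATA3 itself had 0 strong regions among 8 regions within 50 kb, and the 14 genes of the GATA family and its cofactors had 0 in all. The region inside GATA3 that all 12 libraries called (chr10:8070654-8072097) had percentiles from 25.4 to 72.3. AOPEP had 0 among 52 regions, although its strongest region (chr9:94742922-94744696) reached 99.97 in a list, because 10 and not 12 libraries called it. TFEB had 2 among 13, the leading site and a second at chr6:41697013-41699088 with percentiles from 98.2 to 99.96. Of the RUNX factors, which often share sites with other developmental regulators, RUNX1 had 3 strong regions and CBFB 1, while RUNX2 and RUNX3 had 0. In the AP-1 family 1 of 12 genes had one, FOSL1 (chr11:65902146-65903605), with percentiles from 90.4 to 98.6.

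Genes of the actin cytoskeleton and focal adhesions had strong regions most often among the larger lists, 10 of 20 genes, against 11.6% of all genes. All gene lists were chosen with earlier results of these data known. Their shares, here and below, are therefore descriptions beside the 11.6% and no evidence of enrichment. The actin and focal adhesion genes included ASAP1 with 5 regions and MYO1E with 2. ACTN1, ACTN4, CAP2, LPP, PALLD, PXN and TPM1 had 1 each. ACTN1 and ACTN4 encode actinins that cross-link actin, and PXN the adhesion scaffold paxillin. The actin and focal adhesion list had long genes, with a median of 107210 bp, and the part of gene length in its share was not tested. Integrins and laminins had 5 of 18 genes (27.8%): ITGA2 had 3 regions, ITGA1 2, of which 1 is shared with ITGA2, LAMB1 2, LAMC1 1 and ITGB3 1. Of the LAMB1 regions, 1 lay inside LAMB4. Integrin and laminin genes were long too, with a median of 79243.5 bp, and the part of this was not tested. ITGA1 and ITGA2 are collagen-binding integrin subunits, and the shared region (chr5:52987479-52991121) covers the ITGA2 start site.

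Luminal epithelial genes had 6 of 22 (27.3%). KRT8 and KRT18, the neighbouring genes of the paired simple-epithelial keratins, shared 2 strong regions (chr12:52924815-52925779 and chr12:52945454-52947512), with lowest percentiles of 90.7 and 86.7. KRT19, CLDN4, EHF and PGR had 1 each. Basal genes had 2 of 16, SOX9 and TP63, and mesenchymal genes 3 of 16 (18.8%), SNAI2 with 2, ZEB2 and CDH2. The share of basal genes was near that of all genes. The region inside CDH2, the N-cadherin gene, ranged from 81.4 to 99.4 over the 12 libraries, while that inside ZEB2, a repressor of epithelial genes, stayed between 97.2 and 99.2.

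Signalling genes were present too, in lists of long genes (median lengths of 50546 bp for the TGF-beta pathway, 84915.5 bp for the Hippo list and 88811 bp for receptor tyrosine kinases, against 24115 bp for all genes). The part of gene length in their shares was not tested. The TGF-beta pathway had 5 of 17 genes (29.4%): TGFBR3 with 2 regions, and TGFBR2, SMAD4, SMAD7 and SKIL with 1. These are 2 receptors, the common and the inhibitory SMAD and a repressor of SMADs. The SMAD4 and SKIL regions lay inside ELAC1 and CLDN11. The Hippo pathway and YAP targets had 4 of 20 (20.0%), AMOTL1 with 2, YAP1, WWC1 and ANKRD1. Receptor tyrosine kinases had 3 of 18 (16.7%): MET, the hepatocyte growth factor receptor, had 2, ROR1 2 and IGF1R 1. The MET site outside the gene span (chr7:116809465-116811320) had percentiles from 98.98 to 99.85, and that inside the gene from 85.7 to 94.3.

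Among transcription factor genes, nuclear receptors had 6 of 17 (35.3%, against 11.6% of all genes): NR6A1, PPARG, PPARD, RARA, NR3C1 and ESRRA. Nuclear receptor genes were long, with a median of 85621 bp against 24115 bp for all genes. The part of gene length in this share was not tested. The ESRRA and RARA regions lay inside PLCB3 and WIPF2. The region counted for PPARG (chr3:12460740-12462186), with its middle 27086.8 bp outside the gene, had percentiles from 98.0 to 99.7. KLF, SP and EGR factors had 5 of 17 (29.4%), with 3 regions at KLF12, 2 at KLF6 and 1 each at SP3, SP6 and EGR3. Lysosome and autophagy genes had 4 of 18 (22.2%), TFEB with 2 and MITF, MCOLN1 and SQSTM1 with 1. The MCOLN1 and SQSTM1 regions lay inside PEX11G and MAML1. Cell cycle genes had 3 of 16 (18.8%), CCND3 with 2 and the kinase inhibitors CDKN1A and CDKN1B with 1. The regions counted for CDKN1A and CDKN1B had median percentiles of 99.9 and 99.6. That of CDKN1B lay inside GPR19, 41620.8 bp from CDKN1B. In the housekeeping list 3 of 14 (21.4%) had one. That of RPLP0 was the region inside PXN, and that of SDHA lay inside PDCD6.

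Lists of other cell types were mixed. T cell genes had 6 of 17 (35.3%): CD28 with 2 regions, and ZAP70, LCK, IL7R, IL5 and IL13. The LCK region lay inside HDAC1. IL5 and IL13, cytokines of type 2 helper cells, shared 1 region inside RAD50 (chr5:132606681-132607530), with percentiles from 97.6 to 99.3. The ZAP70 site, near the gene of a T cell receptor kinase, had percentiles from 95.8 to 99.8. Erythroid genes had 0 of 15 and muscle genes 0 of 15, and neuronal genes had 1 of 15, SNAP25. Erythroid and muscle genes were also short, with medians of 2780 and 16509 bp, and had a region called in all 12 libraries, of any strength, at 2 genes of each list.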

How the data were processed

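GATA3 ChIP-seq peak lists of 12 libraries were used. The tools were MACS2 2.1.4 and FastQC, and the build hg38, per the submitters' processing notes. Not given in the sources used here were the aligner, control, filters and read depth, so depth is unknown and precision rests on 2 libraries per group. The score in each deposited list is the authors' own, per peak and called per library, on a scale the files do not name. It served only to rank peaks within a list.

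Merging, percentiles and counts were computed with Python 3.11.15, pandas 2.3.3, numpy 2.4.6 and scipy 1.17.1, and tested on simulated data. The members and gene lists were chosen with earlier results of these data known. Genes and start sites came from RefSeq (GRCh38.p14); for genes without a promoter entry both span ends served as start sites. No promoter entry lies on chromosome 8. Coordinates are 1-based. Regions bear the name of the closest protein-coding gene with an end at most 100 kb away. Named were the 10 highest, 3 on each side of the threshold, the 3 widest and narrowest, the 8 genes and 5 chains with most, the 3 largest rank differences each way per contrast, 4 genes per list, and GATA3, TFEB and AOPEP; further list members were named after their values were seen. Widths and split shares were compared by exact permutation, two-sided, tag exchanged within genotype or genotype within tag, with Benjamini-Hochberg adjustment over 10 tests. Motifs in the regions themselves were not analysed here for want of a genome sequence.

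Same-numbered libraries were treated as pairs only in the pair counts, the pair differences and the replicate block. The main permutation tests did not use the pairing. It rests on the data, since the labels do not state it. Differences between replicate 1 and 2 in log2 peak width of the strong regions correlated at 0.256 to 0.477 over the 15 pairs of groups. Alternatives were other thresholds, peak filters, merge rules, distances, left-out libraries and a replicate block.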

Additional observations from a re-analysis of the deposited data

Results flagged for a closer look

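Named strong regions were looked at again where the rank difference between tag states had opposite signs in 2 GATA3 proteins, in both replicates of each. Only the sign was required, so some of the differences are very small. Values are FLAG minus untagged differences in percentile points among the regions called in all 12 libraries, and none of the differences between proteins was tested. At APBB1IP the tag went with -8.01 in WT and 6.17 in A442M, a difference of -14.2. The A442M mean came from 0.252 in replicate 1 and 12.1 in replicate 2. At POLR3B the mean was -3.38 in WT, 6.63 in A442M and -5.52 in G444E, so that WT differed from A442M by -10.0 and A442M from G444E by 12.2. The site inside NAALADL2 had 1.32 in WT, -7.89 in A442M and 9.54 in G444E, which gives 9.21 for WT against A442M and -17.4 for A442M against G444E. At the chromosome X site that starts at 42249163, WT had -0.103 and G444E 8.52, a difference of -8.63. The WT replicates there had -0.0412 and -0.165, so the rank in WT hardly differed by tag.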

How the results depend on the processing

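None of the 10 tests of width or splitting passed its threshold under any alternative run. The number of strong regions (1878), their median width (1107.5 bp) and the share of genes near one (11.6%) moved with the threshold: 3164, 1036 bp and 17.7% at a lowest percentile of 70, and 786, 1215.5 bp and 5.30% at 90. Peaks with a score of at least 10 gave 1405 regions, 1149 bp and 8.94%. Lists of equal length gave 1218 regions, 1180.5 bp and 7.97%. Calls covering at least 50% of a region gave 697 regions, 890 bp and 4.84%. Without both untagged WT libraries there were 2926 and 16.8%. Genes within 10 kb and 100 kb gave 5.81% and 18.2%. Leaving out 1 library gave 1881 to 2105 regions, 11.6% to 13.0% of genes and 1052 to 1105.5 bp. The share within 1 kb of a start site (2.29%) was 2.24% to 2.39% then, and 11.3% within 5 kb; without chromosome 8, chosen after seeing the data, it stayed within its interval.

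Of the 10 uncalled differences, the tag difference in width (55.7 to 135 bp with 1 library left out) and the split share of A442M minus WT (0.0399 to 2.81 points) kept their direction in every alternative run, and the other 8 did not. Leaving out 1 library gave widths of -23.4 to 76.4 bp for mutants minus WT, -41.4 to 58.4 for A442M minus WT, -15.1 to 104 for G444E minus WT and -95.6 to 23.6 for A442M minus G444E. Split shares ran from -2.38 to 0.0887 points for the tag, -0.759 to 2.01 for mutants, -2.02 to 1.68 for G444E minus WT and -0.253 to 3.45 for A442M minus G444E. Within the 8 libraries with few contig peaks the widths were -84 bp for mutants minus WT, -122.5 for A442M and -45.5 for G444E, and the split share 0.932 points for G444E minus WT. With scores of at least 10, the split share of mutants minus WT was -0.0445 points. The cause was not tested. With a replicate block the tag difference in width was again 95.4 bp (exact permutation test, p = 0.156). The 4 contrasts of the tag or of both mutants did not pass under the block; the 6 single-mutant contrasts could not, since their smallest p there was 0.125 or 0.25. Motif windows of other sizes were not run.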

Other observations

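Strong regions also overlapped microRNA hairpins. Of 1562 hairpins in the RefSeq table, 62 touched a region of any kind and 6 a strong one: MIR32, MIR3179-1, MIR6124, MIR3909, MIR5089 and MIR10399. MIR32 lies in TMEM245 under a strong region at chr9:109045996-109048362, with a lowest percentile of 93.3 and a median of 95.6. MIR6124 lies in MICAL2, a gene of actin regulation, under a region with a lowest percentile of 91.9. MIR3909 lies in TOM1 (lowest percentile 82.6). MIR10399 lies in ZC3HAV1 under the region that stood higher with the tag, with a lowest percentile of 80.3.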
